A study of Mus musculus with 8 samples.

Results

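Loss of IL-15 was examined in the 4 arrays of TAX-LUC tail tumor cells in which macrophage transcripts were abundant, 2 from IL-15-/- and 2 from IL-15+/+ mice, out of 8 arrays in all. The arrays were selected on their measured signal for C1qa, a complement component made by macrophages, whatever their population label, by taking those above 9 on the log2 scale. C1qa was 10.65 and 10.10 in the selected IL-15+/+ arrays of replicates 1 and 2 and 10.73 and 11.43 in the IL-15-/- arrays. The lowest array inside this limit was at 10.10 and the highest outside it at 8.16. These values chose the arrays and are a description without a test. Of the 4 arrays, 3 carry the CD16/32HI label. The IL-15-/- array of replicate 1 carries the CD16/32LO label, and the CD16/32HI array of the same mouse held C1qa at 7.68 and was not selected.

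All mice carried the TAX and LUC transgenes. Tax, an oncogene of the retrovirus HTLV-1, is placed under the human granzyme B promoter, which is active in cytotoxic lymphocytes, and luciferase reports Tax activity. The IL-15-/- mice carried no functional copy of the cytokine gene in any cell type, so that the loss was not restricted to macrophages, and the IL-15+/+ mice carried both copies. The study bred them by crossing IL-15-/- mice with TAX-LUC mice of mixed strain background, partly FVB. Whether strain background differed between the genotypes was not tested. Replicate 1 came from mice aged 14 months and replicate 2 from mice aged 12 months. Tumors arose spontaneously on the tail, and cells were sorted by staining for the Fc receptors CD16 and CD32. Each tumor-bearing mouse gave 1 selected array and 1 that was not selected. The genotype test took all arrays as separate, with no term for mouse. Both arrays of a mouse therefore entered its estimate of spread as if they came from different mice, and its p-values can be too small.

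IL-15 is a cytokine presented on the surface of myeloid and stromal cells to natural killer (NK) cells and CD8 T cells, which need it for survival. Macrophages themselves do not need IL-15 to develop, and they can produce it. Within tumors, macrophages clear dying cells through lysosomes, release IL-1 and neutrophil-attracting chemokines when NF-kB is active, and shift to glycolysis where oxygen is low.

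The CD16/32HI label stands for malignant large granular lymphocytes. Marker lists were compared between arrays, since signals of different probe sets cannot be set against each other. The mean log2 signal over 20 macrophage markers, the selecting gene C1qa among them, was 8.38 and 8.08 in the IL-15+/+ arrays and 8.42 and 8.64 in the IL-15-/- arrays, and between 7.02 and 7.28 in the 4 arrays left out. Over 21 NK cell markers the mean was 5.49 and 5.24 against 4.995 and 4.88, and in the arrays left out 6.33 and 6.31 in IL-15+/+ and 4.805 and 5.06 in IL-15-/- mice. In the IL-15+/+ mice the arrays with the CD16/32HI label were therefore those with the lower NK signal. The 90th percentile of 1035 olfactory receptor probe sets, which stand for genes these cells hardly use, served as a background limit in each array. Above it lay 17 of the 20 macrophage markers in each array, and 11 and 10 of the NK markers in the IL-15+/+ and 6 and 6 in the IL-15-/- arrays. Mature neutrophil markers had means of 7.74 and 7.48 against 8.14 and 8.0, and between 9.74 and 10.46 in the arrays left out.

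**Figure D1:**
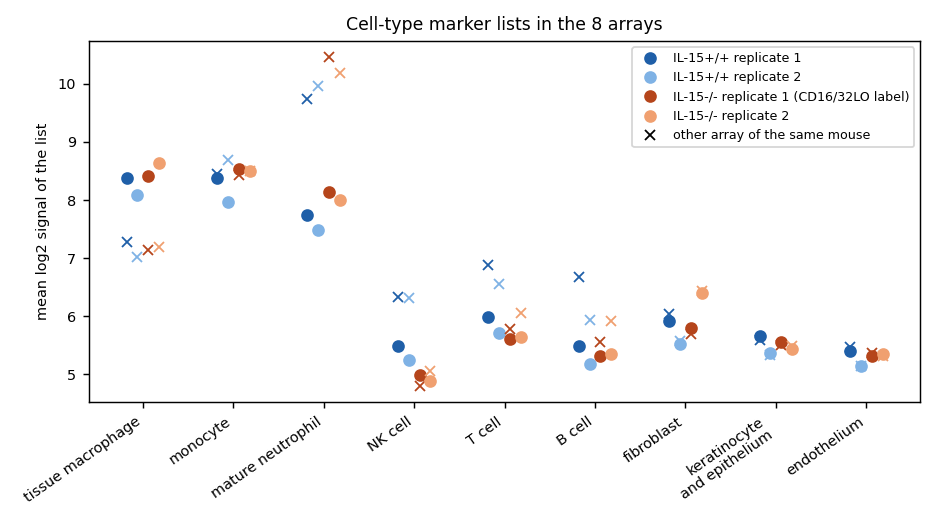
Mean log2 signal (vertical axis) of marker lists for 9 cell types (horizontal axis). Filled circles are the 4 macrophage-rich arrays and crosses the other array of the same mouse, with colours for genotype and replicate. The circles stand above the crosses for tissue macrophages and below them for mature neutrophils in every mouse.

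Several properties of the arrays run with genotype. Xist, which marks cells with an inactive X chromosome, was 4.64 and 4.41 in the IL-15+/+ arrays and 10.42 and 10.67 in the IL-15-/- arrays, and the Y-linked Eif2s3y was 9.40 and 9.20 against 3.11 and 2.94. Sex and genotype therefore cannot be told apart in these mice, and probe sets of the X and Y chromosomes were set aside. Array medians were 5.88 and 5.62 in the IL-15+/+ and 5.896 and 5.86 in the IL-15-/- arrays, with the IL-15+/+ array of replicate 2 lowest. Exactly equal values, which occur between arrays normalized together, were found among the replicate 1 arrays but 0 times between the genotypes of replicate 2. They were also found 0 times between the replicates. Normalization runs were inferred from these equal values only. In replicate 2, genotype and the run inferred in this way cannot be told apart. Over the 20965 probe sets tested, the median log2 difference between IL-15-/- and IL-15+/+ was 0.12 (0.00 within replicate 1 and 0.23 within replicate 2). Differences below are on the log2 scale and are to be read against this median, which moved to -0.01 with each array centred and to 0.00 with quantile normalization.

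The first question was which transcripts differ with IL-15 genotype in macrophage-rich cells. Of the 20965 probe sets 1 (0.00477%) passed the test at a Benjamini-Hochberg adjusted p under 0.05 (limma). BC018473, a noncoding RNA gene of chromosome 11, was at 8.08 and 9.19 in the IL-15+/+ arrays and at 5.03 and 4.61 in the IL-15-/- arrays. It fell by 3.82 (SE 0.368, adjusted p = 0.0112). Both IL-15-/- values lay below the background limit of their arrays (5.36 and 5.23), so that the size of 3.82 is uncertain. Taken against that limit the gene was at least 10.15-fold lower. Without the IL-15+/+ array of replicate 2 its difference kept the sign but did not pass (adjusted p = 0.0641), and the same was so without the IL-15-/- array of replicate 2 (adjusted p = 0.103). It also missed the threshold with each array centred (adjusted p = 0.119) and over all 35557 probe sets of the table (adjusted p = 0.0823). The 4 arrays left out carried the same contrast for BC018473, with 11.09 and 11.95 in IL-15+/+ and 5.12 and 5.04 in IL-15-/- mice (difference -6.44, adjusted p = 4.98e-05), of which the IL-15-/- values again lay below the limit (5.34 and 5.22).

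Some genes beside BC018473 on chromosome 11 were also lower in IL-15-/- arrays, and none passed the adjusted test in the macrophage-rich arrays. St6galnac2, its nearest measured neighbour on one side and a sialyltransferase, was 7.39 and 7.55 against 6.31 and 6.51 (difference -1.06, adjusted p = 0.329). St6galnac1, the neighbour on the other side and named after its values were seen, differed by -0.48 (adjusted p = 0.721), with both IL-15-/- arrays below the background limit. In the 4 arrays left out both passed, with -1.79 for St6galnac2 (adjusted p = 0.0104) and -2.21 for St6galnac1 (adjusted p = 0.018). Cygb, which encodes the globin cytoglobin and lies 4 measured genes away, was 7.43 and 8.001 in IL-15+/+ and 6.37 and 6.07 in IL-15-/- arrays (difference -1.50, adjusted p = 0.242). Of the 8 nearest measured neighbours, 4 on each side, 5 differed downward and 3 upward, among the latter Snhg16 (0.32), which lies nearer than Cygb. This count is a description without a test.

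Below the threshold of the test the differences leaned upward. An unadjusted p under 0.05 with a higher mean in IL-15-/- was found for 1220 probe sets (5.82%) and with a lower mean for 347 (1.66%). Both IL-15-/- arrays lay above both IL-15+/+ arrays in 26.8% of probe sets and below them in 9.75%. This lean followed the scaling. Among probe sets with an unadjusted p under 0.05 the share that was higher was 77.9% as deposited, 45.7% with each array centred and 49.3% with quantile normalization. With only probe sets of above-median mean fitted, on the deposited values, 1173 were higher and 79 lower (93.7% higher). The upward lean therefore lay mostly in probe sets of higher signal. Over 3-fold differences were few, with 13 probe sets higher (0.062%) and 6 lower (0.0286%).

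**Figure D2:**
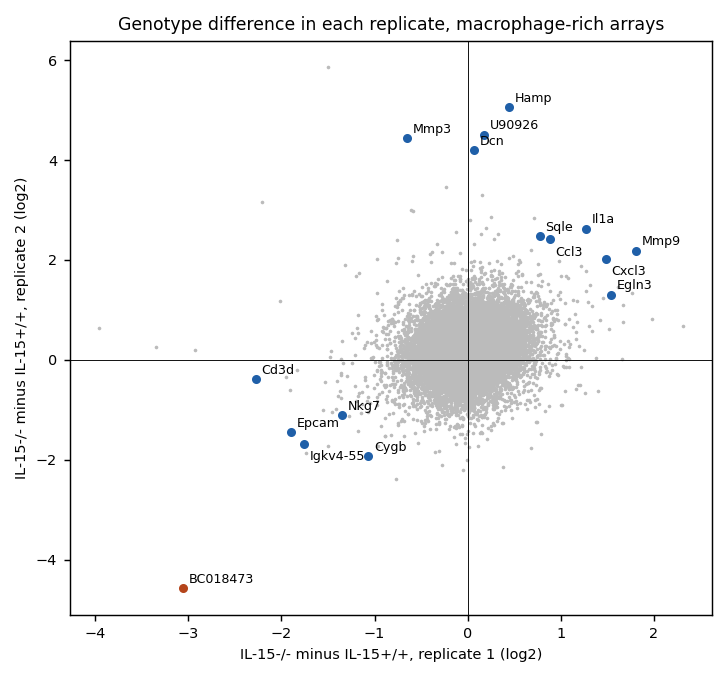
Log2 difference between the IL-15-/- and IL-15+/+ macrophage-rich arrays of replicate 1 (horizontal axis) against that of replicate 2 (vertical axis) for the 20965 probe sets tested. BC018473, in red, stands at the lower left, Il1a, Mmp9 and Cxcl3 at the upper right, and Hamp, Dcn, Mmp3 and U90926 have differences from 4.19 to 5.05 in replicate 2 and from -0.65 to 0.45 in replicate 1.

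Genes of glycolysis and the response to low oxygen were higher in the IL-15-/- arrays more often than probe sets at large. Of the 21 measured members, 15 had an unadjusted p under 0.05 with a higher mean, against 5.82% of all probe sets, and 0 had one with a lower mean. Both IL-15-/- arrays stood above both IL-15+/+ arrays in 16 members, against 26.8% of all. None passed the adjusted test. The median difference of the list was 0.63, with 0.41 within replicate 1 and 0.74 within replicate 2. With each array centred the median was 0.50 and 11 members had a higher mean with an unadjusted p under 0.05, against 3.46% of all probe sets at that scaling. With quantile normalization the median was 0.39 and the count 8, against 2.98%. The counts of the lists that follow are to be read against the same shares of all probe sets, 5.82% higher and 1.66% lower at an unadjusted p under 0.05. These shares include probe sets of low signal. All 21 members of this list lay above the background limit in each macrophage-rich array, so their excess over 5.82% may be overstated.

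Egln3, a prolyl hydroxylase that is itself induced when oxygen is low, was 6.44 and 6.09 in the IL-15+/+ arrays and 7.98 and 7.39 in the IL-15-/- arrays. This was the largest difference of the list (1.42, SE 0.249, adjusted p = 0.242), and the groups did not overlap. Slc16a3, which exports lactate, was 7.45 and 7.16 against 8.06 and 8.19 (difference 0.82). The glucose transporter Slc2a1 was 7.93 and 7.38 against 8.57 and 8.36 (0.81). Ldha, which makes lactate from pyruvate, was 9.17 and 8.71 against 9.75 and 9.73 (0.80). Ero1a, an oxidase of the endoplasmic reticulum plotted under its older symbol Ero1l, was 8.15 and 8.31 against 8.94 and 9.10 (0.79). In each of these genes both IL-15-/- arrays were the high ones. Adjusted p values of the last 4 were between 0.537 and 0.62 (limma). Vegfa, the endothelial growth factor, was 6.67 and 6.34 against 7.44 and 7.14 (0.78). The smallest differences included that of Hk1, named after its values were seen, at 12.09 and 12.13 against 12.09 and 11.99, whereas a second Hk1 probe set of lower signal was 6.16 and 6.25 against 6.52 and 6.52 (0.31, adjusted p = 0.732).

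Promoter sequence was compared for 4 lists whose members leaned one way, to show which letters these members share. Promoters of 300 bases (250 before to 50 after the start) came from RefSeq, build GRCm38.p6, and both strands were searched. The core of the hypoxia response element, ACGTG, was present in 14 of the 19 glycolysis and hypoxia genes with a promoter (73.7%) and in 21.8% of 27025 genes. The 14 genes had a median difference of 0.78 and the other 5 of 0.51. The lysosomal E-box TCACGTG, which contains ACGTG, was present in 5 of 15 lysosome genes (33.3%) and in 4.29% of all genes. A kappaB core, GGANNTTCC, was present in 10 of 25 NF-kB targets (40%) and in 4.86% of all. The sterol response motif TCACNCCAC was present in 1 of 12 lipid genes (8.3%) and in 1.44% of all. The lists were drawn up as known targets, and a match describes letters and not binding. For each motif the promoter of the member with the largest difference among those with an unadjusted p under 0.05 and a match is shown, with the matches in capitals.
Egln3 (chr12:54203825-54204124, - strand): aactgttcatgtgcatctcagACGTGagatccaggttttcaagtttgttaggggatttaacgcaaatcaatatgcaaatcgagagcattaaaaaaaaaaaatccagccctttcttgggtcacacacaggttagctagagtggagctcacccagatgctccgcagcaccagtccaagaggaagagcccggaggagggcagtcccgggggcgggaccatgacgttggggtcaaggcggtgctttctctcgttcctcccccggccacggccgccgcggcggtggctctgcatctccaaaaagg
Lamp1 (chr8:13158911-13159210, + strand): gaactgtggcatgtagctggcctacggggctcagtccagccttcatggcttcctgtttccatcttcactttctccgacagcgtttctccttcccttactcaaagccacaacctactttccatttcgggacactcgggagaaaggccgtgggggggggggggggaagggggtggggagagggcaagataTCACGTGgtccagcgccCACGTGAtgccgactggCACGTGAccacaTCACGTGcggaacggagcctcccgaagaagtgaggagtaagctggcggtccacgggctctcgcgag
Hmgcs1 (chr13:119690101-119690400, + strand): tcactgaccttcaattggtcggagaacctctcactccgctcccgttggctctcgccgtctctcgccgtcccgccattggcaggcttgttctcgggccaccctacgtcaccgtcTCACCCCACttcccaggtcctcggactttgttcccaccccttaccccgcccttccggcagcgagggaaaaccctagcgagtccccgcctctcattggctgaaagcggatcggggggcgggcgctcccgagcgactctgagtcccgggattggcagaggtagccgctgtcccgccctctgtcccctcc
Tnfaip2 (chr12:111442411-111442710, + strand): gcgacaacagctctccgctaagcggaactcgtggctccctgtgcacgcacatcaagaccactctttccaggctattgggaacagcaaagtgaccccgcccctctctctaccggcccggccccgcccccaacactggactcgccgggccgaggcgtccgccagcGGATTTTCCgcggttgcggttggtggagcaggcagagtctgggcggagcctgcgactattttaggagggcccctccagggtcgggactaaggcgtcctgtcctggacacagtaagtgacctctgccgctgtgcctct

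Lysosomal genes also stood higher in IL-15-/- arrays. Of 18 measured members, 11 had an unadjusted p under 0.05 with a higher mean (5.82% of all probe sets) and 0 with a lower mean, both IL-15-/- arrays were above in 14 (26.8% of all), and none passed the adjusted test. The median difference was 0.71 (0.58 with each array centred, 0.49 with quantile normalization). It was 0.24 within replicate 1 and 1.15 within replicate 2. Ctsk, a collagen-degrading cathepsin, was 6.08 and 5.98 in IL-15+/+ and 7.76 and 6.74 in IL-15-/- arrays (1.21, adjusted p = 0.617). Lamp1, the major membrane protein of lysosomes, whose promoter is shown above, was 10.48 and 9.39 against 10.73 and 11.17 (1.01, adjusted p = 0.639). For Lamp1 most of the distance came from the low IL-15+/+ array of replicate 2. The cathepsins Ctsd, Ctsb and Ctsz differed by 0.97, 0.96 and 0.91, and in all 3 the groups did not overlap. Ctsd, which was 9.72 and 9.40 against 10.49 and 10.58, showed the difference in both replicates.

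**Figure D3:**
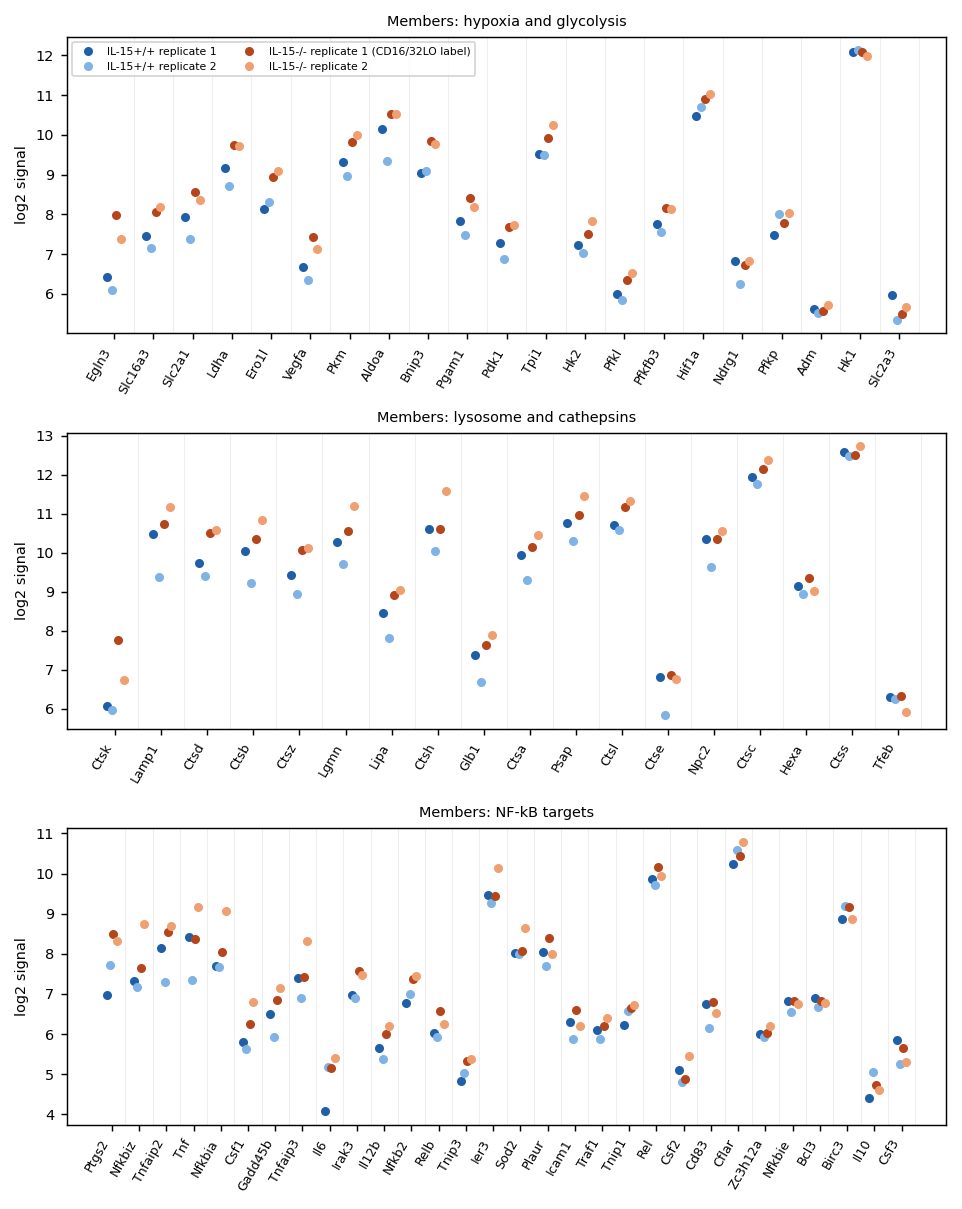
Log2 signal (vertical axis) of each measured member (horizontal axis, ordered by the difference between genotypes) of the hypoxia and glycolysis, lysosome and NF-kB lists in the 4 macrophage-rich arrays. Orange and red points (IL-15-/-) lie above blue points (IL-15+/+) in 16 of 21, 14 of 18 and 17 of 30 members. Over all probe sets tested this was so in 26.8%.

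The second group comprised IL-1, NF-kB and chemokine genes. Il1a, which encodes the alarm cytokine IL-1 alpha, was 7.86 and 7.26 in the IL-15+/+ arrays and 9.14 and 9.88 in the IL-15-/- arrays (1.95, SE 0.281, adjusted p = 0.134). Both IL-15-/- arrays were above both controls by more than 1 log2 unit. Il1b was 11.45 and 10.79 against 11.82 and 11.80 (0.69, adjusted p = 0.639), Nlrp3, the sensor of the inflammasome, differed by 0.82, and Il1f9, an epithelial and neutrophil IL-1 relative, by 1.28 with the highest signal in replicate 2 (6.10 and 6.18 against 6.64 and 8.19). Il18r1, a receptor chain typical of NK and T cells, went the other way (-0.99, adjusted p = 0.617). Over the 16 members of the IL-1 family the median was 0.12, the same as over all probe sets, with 4 members higher and 1 lower at an unadjusted p under 0.05.

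Among chemokines, the ligands of the neutrophil receptor CXCR2 were divided, and none passed the adjusted test. Cxcl3 was 6.90 and 6.64 against 8.39 and 8.66 (1.76, SE 0.279, adjusted p = 0.209), and the groups were far apart. Cxcl2 was 10.08 and 9.37 against 10.65 and 11.33 (1.26, adjusted p = 0.639). Ppbp, a platelet and myeloid chemokine, was 7.89 and 6.61 against 8.61 and 9.45 (1.78, adjusted p = 0.53). Cxcl1 and Cxcl5, ligands of the same receptor named after their values were seen, overlapped between genotypes. Cxcl1 was 8.31 and 7.91 against 7.64 and 9.21, and Cxcl5 was 5.64 and 5.26 against 5.11 and 6.96. Ccl3, which attracts monocytes and lymphocytes, was 8.23 and 7.08 against 9.12 and 9.49 (1.65, adjusted p = 0.53). Ccl8, a monocyte attractant, was 9.28 and 8.04 against 6.35 and 8.24, so that the genotypes overlapped (-1.37, adjusted p = 0.639). Cxcl9, the T cell attractant induced by interferon gamma, was 9.27 and 6.94 against 5.93 and 7.198 and changed sign between replicates. Of 13 CXC members 5 were higher at an unadjusted p under 0.05 and 0 lower (median 0.47, but 0.07 within replicate 1 and 1.302 within replicate 2). Of 16 CC members 3 were higher and 1 lower (median 0.30).

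NF-kB target genes had 11 of 30 members higher at an unadjusted p under 0.05 (5.82% of all probe sets) and 0 lower, with a median of 0.38 (0.32 and 0.42 within the replicates). The count was 7 with each array centred (3.46% of all) and 4 with quantile normalization (2.98% of all), and none passed the adjusted test. Ptgs2, the inducible cyclooxygenase, was 6.98 and 7.71 against 8.50 and 8.33 (1.07). Nfkbiz, a nuclear partner of NF-kB, was 7.32 and 7.18 against 7.66 and 8.74 (0.95), and the inhibitor Nfkbia was 7.69 and 7.67 against 8.04 and 9.07 (0.88). Tnfaip2 was 8.14 and 7.30 against 8.54 and 8.70 (0.90). In these 4 genes the groups did not overlap. Tnf, at 8.43 and 7.34 against 8.36 and 9.16, overlapped. Adjusted p values of the 5 genes were between 0.639 and 0.652 (limma).

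Pattern recognition receptors were mixed. Clec4e, a receptor for mycobacterial lipid and dead cells, was 8.02 and 7.28 against 8.70 and 9.49 (1.44, adjusted p = 0.617), and its neighbour Clec4d differed by 0.92. Of 18 members 4 were higher at an unadjusted p under 0.05 and 0 lower, with a median of 0.19. The mature neutrophil list leaned upward too, with 6 of 19 higher and 1 lower (median 0.52), and its part in the chemokine and NF-kB values was not tested. Its members differed in sign. S100a8, the most abundant neutrophil cytosol protein with its partner S100a9, was 11.49 and 10.85 against 10.78 and 9.67 (-0.94), and Csf3r, named after its values were seen, was 7.46 and 7.38 against 7.32 and 7.15. The members with the largest upward differences were Mmp9, Il1f9, Ptgs2, Slpi and Clec4d.

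The list of alternative activation and suppression had 9 of 24 members higher at an unadjusted p under 0.05 (5.82% of all probe sets) and 1 lower (1.66% of all), with a median of 0.44. Mmp9, a gelatinase, was 5.75 and 5.12 in IL-15+/+ and 7.56 and 7.30 in IL-15-/- arrays (2.00, SE 0.282, adjusted p = 0.134). Arg1, which consumes arginine and restrains T cells, was 8.88 and 8.62 against 10.55 and 9.72 (1.38, adjusted p = 0.487). Mmp19 was 6.49 and 6.47 against 7.58 and 7.28 (0.95) and Ecm1, a secreted matrix protein, 8.86 and 7.81 against 9.17 and 9.45 (0.98). Cd274, which encodes the checkpoint ligand PD-L1, was 7.49 and 6.86 against 7.96 and 7.81 (0.71). In all 5 both IL-15-/- arrays were the higher ones. Markers of alternative activation, named after their values were seen, had smaller differences. Mrc1, the mannose receptor, was 11.19 and 11.20 against 11.45 and 11.41. Chil3, a chitinase-like secreted protein, was 7.74 and 7.84 against 8.0 and 7.53, and Clec10a, a lectin, 6.16 and 6.58 against 5.895 and 6.47, so that both overlapped between genotypes.

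Macrophage, monocyte and engulfment genes showed members with larger signals in IL-15-/- mice beside many that overlapped between genotypes. In bulk RNA, more cells of a type and more RNA per cell cannot be told apart. The tissue macrophage list, which contains the selecting gene, had a median of 0.32, with -0.02 within replicate 1 and 0.50 within replicate 2. Stab1, a scavenger receptor, was 6.64 and 6.73 against 7.47 and 7.87 (0.98, adjusted p = 0.53), and Csf1r, the receptor for macrophage growth factor, 9.93 and 9.75 against 10.45 and 10.75 (0.76). Adgre1, which encodes the macrophage marker F4/80 and was named after its values were seen, was 9.87 and 9.63 against 9.67 and 9.91. Fcrls, an Fc receptor-like scavenger protein, was 6.36 and 6.09 against 7.11 and 8.02 (1.34), and Itgam, which encodes CD11b, 7.996 and 7.17 against 8.52 and 8.90 (1.13). Of 20 phagocytosis genes, 7 were higher and 0 lower at an unadjusted p under 0.05. Among monocyte genes F13a1, a clotting factor subunit, was 6.14 and 6.58 against 7.42 and 7.95 (1.32), and Fn1, fibronectin, 9.13 and 9.35 against 10.55 and 10.14 (1.11). In the 4 arrays left out these 2 genes differed by -0.35 and 0.16.

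Sterol synthesis and lipid transport genes had some members with large differences beside a list median of 0.31. Sqle, which makes squalene epoxide, was 7.58 and 6.23 against 8.35 and 8.70 (1.62, adjusted p = 0.534). Hmgcs1, the synthase at the entry of the pathway, whose promoter is shown above, was 7.25 and 7.15 against 8.30 and 8.84 (1.37, SE 0.253, adjusted p = 0.28). Fabp5, a carrier of fatty acids, was 9.998 and 9.67 against 11.05 and 10.82 (1.10, adjusted p = 0.53). Abca1, which exports cholesterol and is induced by sterol excess, was 8.86 and 8.54 against 9.33 and 9.52 (0.73). Of 20 lipid genes 6 were higher and 0 lower at an unadjusted p under 0.05. Of 17 iron and heme genes 5 were higher and 0 lower. The ferritin light chain Ftl1 was 10.81 and 9.74 against 11.17 and 11.39 (1.01), and heme oxygenase Hmox1, at 9.48 and 8.25 against 9.36 and 10.81, overlapped between genotypes.

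Other large upward differences were found for genes outside the lists. Tnfrsf9, the costimulatory receptor 4-1BB, was 6.22 and 5.74 against 7.99 and 7.09 (1.55, adjusted p = 0.509). Itga9, an integrin chain, was 6.92 and 6.99 against 8.20 and 8.76 (1.52, adjusted p = 0.44). Sema6d, a semaphorin, was 6.61 and 6.09 against 7.59 and 8.07 (1.48, adjusted p = 0.28), and Gask1b, a Golgi protein, 4.56 and 4.48 against 5.77 and 6.36 (1.54, adjusted p = 0.242), with both IL-15+/+ arrays below the background limit. The replicates of each genotype lay within 1 log2 unit of each other in these 4 genes. In the arrays left out, Tnfrsf9, Itga9, Sema6d and Gask1b differed by 0.08, 0.16, 0.06 and 0.35. Other genes named above were higher in IL-15-/- mice there too, although none of the following passed the adjusted test. Cxcl3, Ccl3, Egln3, Mmp9 and Il1a differed by 1.51, 1.36, 1.09, 1.01 and 0.79 in those arrays. In IL-15+/+ mice Il1a was 10.20 and 10.19 there, above its 7.86 and 7.26 in the macrophage-rich arrays.

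A further group was high in the IL-15-/- mouse of replicate 2 only, in both of its arrays. In its macrophage-rich array Dcn, a matrix proteoglycan of fibroblasts, was 9.25, against 5.77 in the other IL-15-/- array and 5.70 and 5.06 in the controls. Mmp3, a stromal protease, was 9.46 there and between 5.02 and 6.43 in the others. Hamp, which encodes the iron hormone hepcidin, was 7.84 there and between 2.79 and 3.69 in the others, and U90926, a gene of poorly known function, was 8.99 there and between 4.49 and 4.75 in the others. In the array of the same mouse that was left out, Dcn was 10.45, Mmp3 10.26, Hamp 8.75 and U90926 10.47. Fibroblast markers were divided in its macrophage-rich array. Collagen genes Col1a1 and Col3a1, named after their values were seen, were 6.39 and 5.72 there, against 6.53 to 6.79 and 5.27 to 5.84 in the others. Sparc was 7.30 and Mmp2 7.90, against 5.91 to 6.28 and 6.81 to 6.97. Over 17 fibroblast markers, Dcn and Mmp3 among them, the mean was 6.40, against 5.80 in the other IL-15-/- array and 5.91 and 5.52 in the controls. With the replicate 1 IL-15-/- mouse left out altogether, an alternative chosen after the data were seen, 5 genes passed the test, among them Dcn, Hamp and U90926, and these calls rest on this single mouse.

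NK cell markers leaned downward. Of 21 NK cell markers, 7 had an unadjusted p under 0.05 with a lower mean in IL-15-/-, against 1.66% of all probe sets, and 0 with a higher mean. Both IL-15-/- arrays were below in 12, against 9.75% of all. None passed the adjusted test. The median was -0.52, and it was -0.38 and -0.33 within the replicates, -0.64 with each array centred and -0.47 with quantile normalization. Nkg7, a granule protein of cytotoxic lymphocytes, was 6.61 and 6.12 in IL-15+/+ and 5.26 and 5.02 in IL-15-/- arrays (-1.23, SE 0.244, adjusted p = 0.347). Klrd1, the CD94 receptor chain, was 7.76 and 7.87 against 6.68 and 7.04 (-0.95, adjusted p = 0.617). The chemokine Xcl1 was 6.53 and 6.82 against 5.89 and 5.73 (-0.86), the transcription factor Eomes 5.62 and 5.54 against 4.65 and 4.79 (-0.86), and the protease Gzma 5.46 and 5.31 against 4.57 and 4.13 (-1.03). In all 5 both IL-15-/- arrays were the low ones, and Nkg7, Eomes and Gzma lay below the background limit in both. Taken against that limit they were at least 2.10-fold, 1.22-fold and 1.06-fold lower.

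T cell markers had 2 of 20 lower and 0 higher at an unadjusted p under 0.05, with a median of -0.14. Both were chains of the T cell receptor complex. Cd3d was 7.19 and 5.61 against 4.92 and 5.22 (-1.33, adjusted p = 0.617), with most of the distance in replicate 1 and both IL-15-/- arrays below the background limit, and Cd3g was 7.24 and 6.77 against 5.83 and 5.79 (-1.20, adjusted p = 0.617). Cd8b1 was 5.72 and 5.82 against 5.37 and 5.18 (-0.49). Cd4, named after its values were seen, was 6.19 and 5.99 against 5.76 and 6.50. B cell markers showed 0 of 17 in either direction, although an antibody light chain gene of the Igkv4 group was 7.95 and 7.44 against 6.19 and 5.75 (-1.72, adjusted p = 0.234). Epcam, an adhesion protein of epithelia and of Langerhans cells, was 8.05 and 8.15 against 6.16 and 6.70 (-1.67, adjusted p = 0.617), while Cd207, the Langerhans cell lectin, was 5.46 and 4.72 against 6.04 and 6.18 (1.02, adjusted p = 0.617), with both IL-15+/+ arrays below the background limit. Rgs18 and Pid1, which act in platelet and metabolic signalling, were lower by 1.10 and 1.06 in the IL-15-/- arrays (adjusted p = 0.639 and 0.544).

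**Figure D4:**
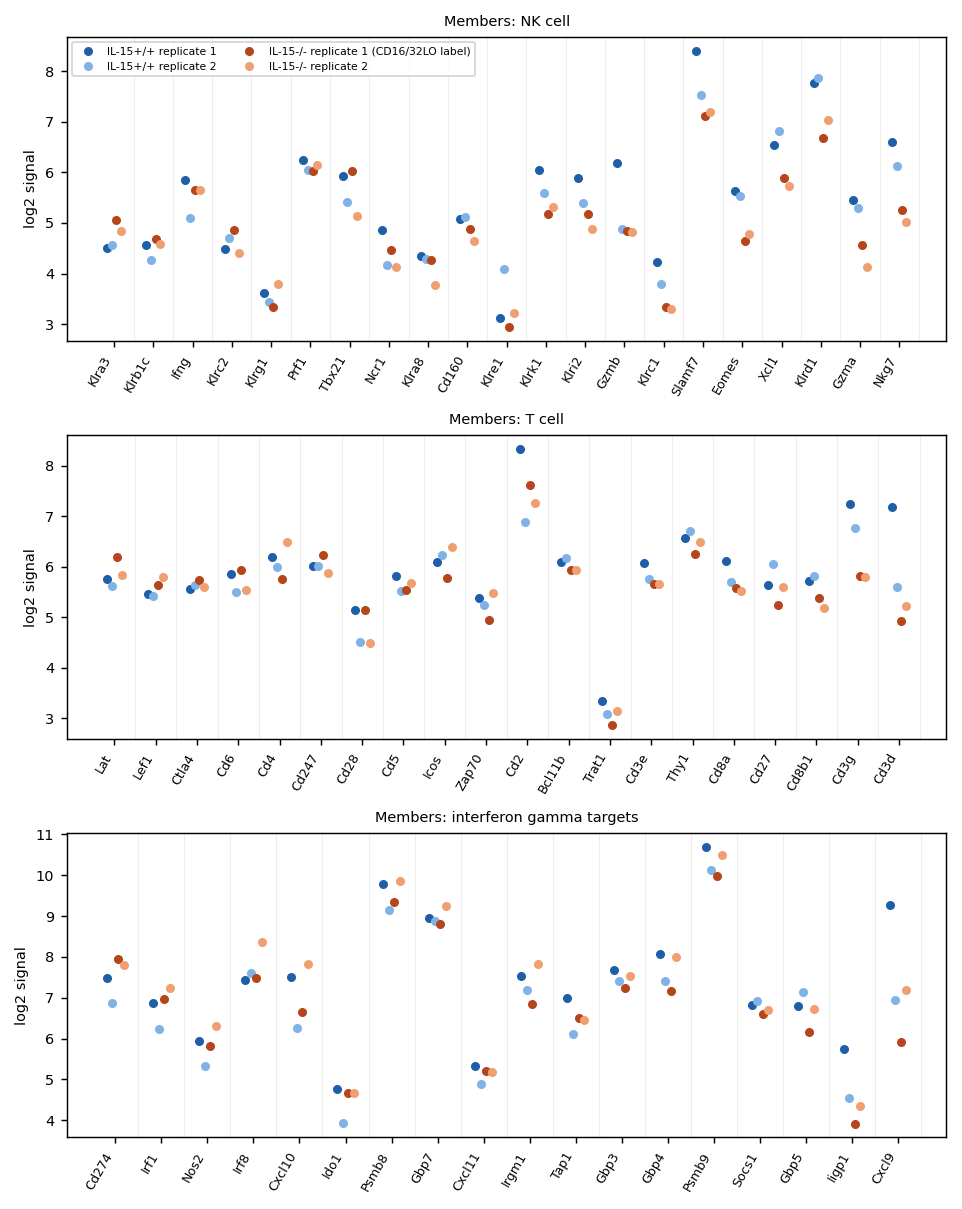
Log2 signal (vertical axis) of each measured member (horizontal axis, ordered by the difference between genotypes) of the NK cell, T cell and interferon gamma lists in the 4 macrophage-rich arrays. IL-15-/- points lie below both IL-15+/+ points in 12 of 21 NK cell and 8 of 20 T cell markers and in 3 of 18 interferon gamma targets. Over all probe sets tested this was so in 9.75%.

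Interferon gamma, which NK and T cells make, acts on macrophages through a set of target genes. These targets did not share a direction. Of 18 measured, 1 was higher and 2 lower at an unadjusted p under 0.05. Their median was -0.45 within replicate 1 and 0.47 within replicate 2. Iigp1, an interferon-inducible GTPase, was 5.75 and 4.55 against 3.92 and 4.34 (-1.03, adjusted p = 0.639), with both IL-15-/- arrays and 1 IL-15+/+ array below the background limit, and Gbp5 was 6.79 and 7.13 against 6.16 and 6.73 (-0.51). Antigen presentation genes of MHC class II had a median of 0.30, with -0.02 and 0.51 within the replicates, and H2-Eb1 was 12.10 and 11.30 against 12.08 and 12.28. The type I interferon list had a median of 0.12, equal to that of all probe sets. Cell cycle genes were also divided between replicates (-0.16 and 0.56), with 3 of 33 higher and 0 lower at an unadjusted p under 0.05.

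**Figure D5:**
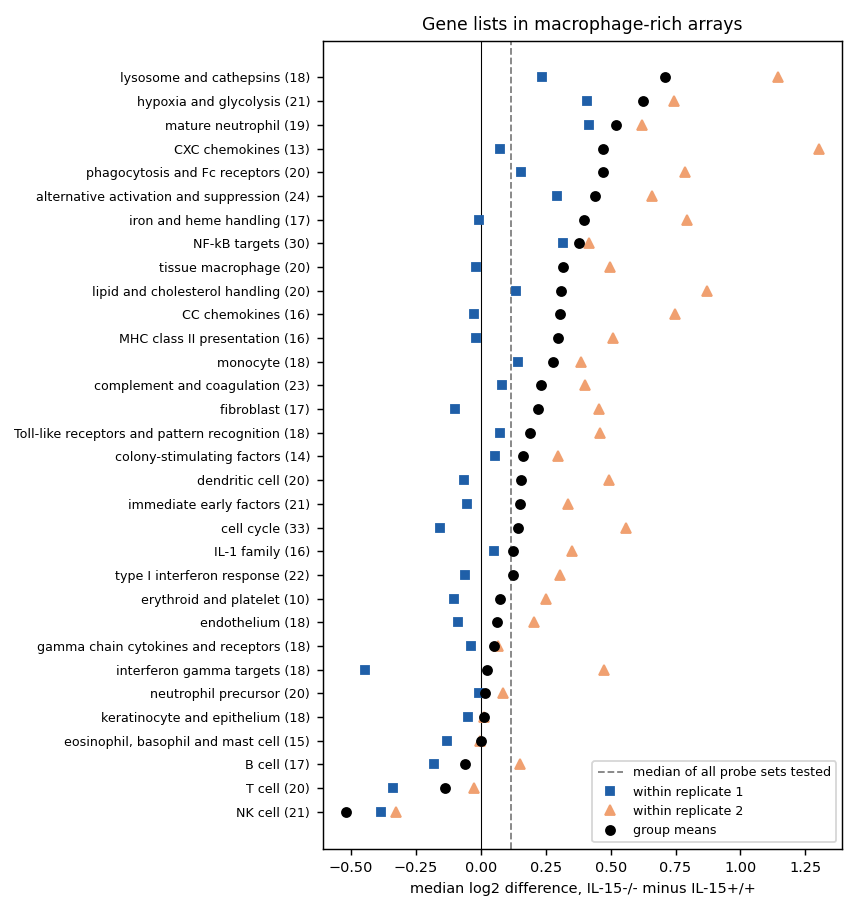
Median log2 difference between IL-15-/- and IL-15+/+ macrophage-rich arrays (horizontal axis) for 32 gene lists (vertical axis, number of measured members in brackets), from group means (black), within replicate 1 (blue squares) and within replicate 2 (orange triangles). The dashed line is the median of all probe sets, 0.12, and the hypoxia and lysosome lists lie to its right in both replicates while the NK cell list lies to its left.

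Il15 itself did not pass the test on these arrays, with 5.40 and 5.18 in IL-15+/+ and 5.45 and 5.22 in IL-15-/- arrays (0.04, adjusted p = 0.971). The background limit was 5.18 to 5.50 in the same arrays, so that Il15 was near the level of genes not in use in both genotypes, and the probe set is no check of the genotype. Among the 18 cytokines and receptors of the common gamma chain family, 1 was higher and 0 lower at an unadjusted p under 0.05. This was Il4ra, the IL-4 receptor, at 9.43 and 9.08 against 9.70 and 10.37 (0.78, adjusted p = 0.639). Of 14 colony-stimulating factors and receptors 5 were higher and 0 lower, among them Csf1 (5.81 and 5.62 against 6.25 and 6.80) and Csf2rb2 (8.41 and 8.20 against 9.13 and 9.08).

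The last question was whether the genotype difference in the macrophage-rich arrays differed from that in the 4 arrays left out, which came from the same mice. With a term for mouse, limma called 0 of 20965 probe sets for the difference (0%), and 1855 had an unadjusted p under 0.05. The nearest was BC018473 (difference of differences 2.62, SE 0.217, adjusted p = 0.0681). In both sets of arrays its IL-15-/- values lay below the background limit, so that this value follows the IL-15+/+ levels. Counts depended on single mice, with 443 calls without the IL-15+/+ mouse of replicate 1 and 14 without that of replicate 2. Side by side, the hypoxia and glycolysis list had a median of 0.63 in the macrophage-rich arrays and 0.49 in the others. The lysosome list had 0.71 and 0.15. The NK cell list had -0.52 and -1.18, with Nkg7 at -1.23 and -2.64 and Gzma, with IL-15-/- values below the background limit in both sets, at -1.03 and -3.89. These pairs of values come from the same 4 mice and were not shown to differ.

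The array with the CD16/32LO label decided part of these values. In the other 3 mice the array with the CD16/32HI label was the one with the higher C1qa, while here it was the reverse. Whether the labels of this mouse were exchanged before deposit was not tested. With the CD16/32HI labels kept as deposited, in place of the C1qa limit, the other array of that mouse replaces it. The macrophage list median then turned to -0.23 and that of MHC class II to -0.61, the mature neutrophil list had a median of 1.74, and the lysosome list was at 0.05. The hypoxia and glycolysis list was then at 0.48, NF-kB targets at 0.33 and NK cell markers at -0.42. This setting mixes genotype with the class of array, since the replacing array lay below the C1qa limit. In IL-15+/+ mice the arrays left out had higher means than the macrophage-rich ones for hypoxia and glycolysis (8.32 and 8.22 against 8.02 and 7.795). The same was so for NF-kB targets (7.46 and 7.29 against 6.92 and 6.81) and NK cell markers (6.33 and 6.31 against 5.49 and 5.24). Without both arrays of that mouse, the hypoxia and glycolysis median was 0.65 and the lysosome median 0.85. The NF-kB median was 0.47 and the NK cell median -0.52. On the IL-15-/- side these medians rest on a single macrophage-rich array, so no counts of members are given.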

How the data were processed

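Tail tumor cells of TAX-LUC mice, sorted by CD16/32 staining into high and low populations, gave RNA that was hybridized to 8 Affymetrix Whole Transcript 1.0ST arrays. The table deposited by the authors holds log2 values, 1 per probe set, which they background corrected, normalized and summarized with RMA in Affymetrix Expression Console, per the labels' processing notes; versions and genome build are not given in the sources used here. The number of arrays limits the precision, and no depth applies.

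Of 35557 probe sets, 21789 carried 1 gene symbol in the platform annotation, 1621 several and 12147 none; 824 of the 1-symbol probe sets lay on the X or Y chromosome and were set aside, which left 20965. A gene with several probe sets was represented by that of highest mean over the 8 arrays. Groups came from the labelled genotype and the C1qa limit. Genotypes were compared with limma 3.58.1 in R 4.3.3 on all 8 arrays in 4 groups (4 residual degrees of freedom). This fit had no term for mouse, and genes were called at an adjusted p under 0.05. The difference between the macrophage-rich and other arrays was tested with a term for mouse. The scripts were tested on simulated data.

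Members and gene lists were chosen with earlier results of these data known. Genes were named if called, if among the 15 largest non-overlapping differences in each direction, as up to 5 members of each list, or as genes the study discussed. Alternatives covered scaling, filters, features, blocks, shrinkage, labels as deposited, each array left out and the methods' one-way test, run on the same values. Promoters and gene order came from RefSeq.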

Additional observations from a re-analysis of the deposited data

How the results depend on the processing

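The count of genes called between genotypes was 1 as reported. It was 0 with each array centred, 0 with the CD16/32HI labels as deposited and 0 after adjustment of the methods' one-way test, and 5 with X and Y probe sets, where Xist, Kdm5d, Eif2s3y and Uty joined, and 5 over all probe sets. With a replicate block 2 genes were called (BC018473 and Zfp979). Same-numbered arrays of the 2 genotypes share a number and an age, and in replicate 1 also the inferred normalization run. Their deviations between genotypes correlated at 0.152 over probe sets, and the block is given here only. The methods' one-way test with the 3-fold limit gave 2 higher and 3 lower. Leaving out single arrays gave 0 to 4 calls, and with the replicate 1 IL-15-/- mouse left out altogether, 5. The counts at an unadjusted p under 0.05 ranged from 474 to 3488 over the single arrays left out.

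For the difference between macrophage-rich and other arrays, the count of 0 became 1 (BC018473) with each array centred, with quantile normalization, with above-median probe sets and with a trended robust prior, and leaving out single mice gave 0 to 443. Without the IL-15+/+ mouse of replicate 1 there were 443 calls and without that of replicate 2 there were 14. The cause was not tested.

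Probe sets over 3-fold numbered 13 higher and 6 lower. They were 8 higher with quantile normalization, 150 higher and 66 lower over all probe sets, 57 higher and 14 lower with labels as deposited, and 95 higher and 42 lower over 2-fold. Leaving out single arrays gave 12 to 52 higher and 5 to 15 lower, and with the replicate 1 IL-15-/- mouse left out altogether there were 46 higher.

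With labels as deposited 9 of the 92 genes checked reversed, namely Il18r1 (0.50), C1qa (-0.82), Fn1 (-0.28), H2-Eb1 (-0.77), S100a8 (0.16), Csf3r (1.53), Cd4 (-0.17), Chil3 (0.16) and Mrc1 (-1.29). A block for the inferred normalization set takes the genotype level from all replicate 1 arrays, those left out among them. It takes the distance between macrophage-rich and other arrays from both replicates. With this block Dcn (-0.20), Mmp3 (-0.94), U90926 (-0.21), Hk1 (0.042), Cd4 (-0.31), Cxcl1 (-0.63), Cxcl5 (-0.72) and Chil3 (0.48) reversed. Between the macrophage-rich arrays of replicate 1 alone, Dcn (0.07) and U90926 (0.18) did not reverse. With each array centred, Il15 was -0.081, Adgre1 -0.083 and Cd4 -0.080, and with quantile normalization they were -0.042, -0.16 and -0.12. With single arrays left out, Il15 was between -0.073 and 0.16, Adgre1 between -0.081 and 0.16, Cd4 between -0.32 and 0.41, Col1a1 between -0.26 and 0.036, Col3a1 between -0.064 and 0.50, Cxcl1 between -0.48 and 1.10, Cxcl5 between -0.34 and 1.51, Chil3 between -0.26 and 0.21, and Clec10a between -0.48 and 0.10. The other genes kept their sign under the alternatives run.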
